A study of Mus musculus with 10 samples.

Results

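The comparison described here is 14 days with the DNMT3A R882H vector turned off against 14 days with it left on. It rests on 6 of the 10 libraries of the series, which the sample labels place in 2 groups: 4 libraries from mice given doxycycline for 14 days (off) and 2 from untreated mice of the same day (on). All groups share the same leukaemia, called DIN. Mouse fetal liver cells received 3 retroviral MSCV vectors together, carrying DNMT3A R882H with dsRed under a doxycycline-regulated element (TRI-DNMT3AR882H), IDH2 R140Q with GFP (MIG-IDH2R140Q) and NRAS G12D with the TTA regulator (MIT-NRASG12D), and grew in sub-lethally irradiated female Ptprca recipients. Frozen cells from moribund mice were then passed to further Ptprca recipients, which received doxycycline or normal chow and water. Doxycycline shuts off DNMT3A R882H only, so IDH2 R140Q and NRAS G12D remained in both groups. Cells carrying cKit and lacking Cd11b were sorted from marrow and spleen, and the labels do not tie a library to an organ, a mouse or a primary leukaemia. Each p-value therefore measures the spread between these libraries, which may be technical. No library had doxycycline without the regulated vector, so the drug and the loss of the mutant enzyme cannot be told apart. In these bulk samples, fewer cells of a type and less RNA per cell cannot be told apart either. The other 4 libraries, 2 off and 2 on at day 5, serve to show which changes depended on the day.

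DNMT3A adds methyl groups to cytosines in DNA, and its R882H form, common in acute myeloid leukaemia, weakens the enzyme and interferes with the normal copy. Mutant IDH2 makes a metabolite that blocks the enzymes removing DNA methylation, and mutant NRAS keeps growth factor signalling switched on. Blood progenitors commit to the red cell or the myeloid line through transcription factors that oppose each other, among them Gata1 with Klf1 on the red cell side and the Cebp, Runx and Irf families on the myeloid side. A cell that takes the red cell path first gains surface proteins, the erythropoietin receptor and a membrane skeleton, and fills with globin later.

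Every level below is a read count of a 3′ tag library scaled to library size (CPM, with edgeR's TMM factors). Per-library values are given in the order of the replicate numbers. Changes are log2 ratios of off over on with their standard errors (SE), from edgeR's quasi-likelihood test with Benjamini-Hochberg adjustment over the 15916 genes that passed the low-count filter, and a call means an adjusted p under 0.05. Of these genes 31.8% were called, 16.9% higher and 14.9% lower in the off libraries, and the median change over all of them was 0.01. Counts in the gene lists below are to be read against these shares, since several lists lie near them. On libraries number only 2, so each of the 6 libraries was also left out in turn. The call survived all 6 of these fits in 6.59% of tested genes on the higher side and 5.82% on the lower side, while 199 called genes were called in none of them. Without on replicate 1 there were 1402 higher and 1583 lower calls, and without on replicate 2 there were 1671 and 1598. A named call held in all 6 such fits unless a library is given beside it with the adjusted p without it. Counts of called genes in a gene list are followed by the counts without each on library, and by those without an off library where a count of 3 or more moved by over 1.5 times. Counts of 1 or 2 often changed when an off library was left out. Many named genes were picked by p or by size of change, so groups that do not overlap in them follow in part from that choice. The share of all tested genes without overlap is not given here.

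Total counts ran from 9753834 to 14340624 in the 6 libraries. The limit that a count of 0 allows, 3 counts of the total, was 0.207 to 0.311 CPM by library, which covers counting error only. Log2 CPM profiles correlated at 0.983 to 0.990 among off libraries, 0.976 between the on libraries and 0.918 to 0.932 across groups. The first principal component held 70.6% of the variance and separated the groups, and the second, with 11.7%, placed on replicate 1 and on replicate 2 at opposite ends. Dnmt3a, the mouse gene of the regulated enzyme (ENSMUSG00000020661, chromosome 12, 3806007 to 3914443), was measured at 55.9 and 73.6 CPM in the on libraries and 32.3, 31.9, 35.6 and 39.2 CPM in the off libraries. All 4 off libraries lay below both on libraries, a change of -0.90 ± 0.16 (adjusted p = 0.00186), and at day 5 the change was 0.15 ± 0.19 (adjusted p = 0.754). The sources do not say whether vector transcripts were counted at this gene. Idh2 (-0.03 ± 0.25) and Nras (-0.22 ± 0.12) were not called. Kit, the gene of the cKit sort marker, fell by 1.44 ± 0.12, and Itgam, that of Cd11b, by 2.28 ± 0.56, a call lost without on replicate 1 (0.140), where it was -1.51. Summed progenitor markers were 61.3 to 68.4 CPM off against 259 and 286 CPM on, with 3 of 5 tested called lower, also without any 1 library, and Meis1 under 1 CPM throughout. Red cell markers summed to 1011 to 1597 CPM off against 621 and 619 CPM on, with 1 of 5 called higher, also without any 1 library. Neutrophil markers (727 to 1136 CPM off, 1797 and 1133 CPM on) and monocyte markers (62.6 to 121 CPM off, 125 and 61.5 CPM on) overlapped between the groups. Of the neutrophil markers 2 of 8 were called lower (0 without on replicate 1 and 3 without on replicate 2). Of the monocyte markers 4 of 8 were called lower, but 0 without on replicate 1, 2 without on replicate 2 or off replicate 1, and 1 without off replicate 2, 3 or 4. T and NK cell markers stood at 84.1 to 125 CPM off and 72.9 and 78.2 CPM on (Cd4 under 1), and B cell markers at 7.03 to 9.15 CPM off and 10.5 and 6.50 CPM on (Cd79a under 1). Megakaryocyte markers came to 21.3 to 36.8 CPM off and 36.6 and 55.8 CPM on. Mast cell markers (Fcer1a and Prss34 under 1) came to 31.8 to 43.5 CPM off and 34.9 and 20.1 CPM on. Such sums follow the most abundant members, and members differed. The median change was 0.88 for megakaryocyte, -0.20 for T and NK cell and -1.78 for mast cell markers. Called higher and lower were 1 and 1 of 5, 1 and 2 of 6, and 0 and 1 of 4. Not all of these calls were kept when 1 library was left out. No B cell marker was called. The 6 stroma and endothelium markers summed to 33.6 to 48.3 CPM off against 117 and 217 CPM on. Only Pecam1, which blood cells make too, passed the filter among them, and it was called lower. Col1a1, Pdgfra, Cdh5 and Kdr, their defining genes, were under 1 CPM in all 6 libraries. The part of changing cell shares in the results that follow was not tested.

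The leading red cell transcription factors were far higher in the off libraries. Klf1, a zinc finger activator of red cell genes (ENSMUSG00000054191, chromosome 8, 84901928 to 84905291, mm10), was present at 1.76 and 1.63 CPM in the on libraries and 65.7, 75, 49.5 and 70.5 CPM in the off libraries. Its level in every off library was far above both on libraries, a change of 5.26 ± 0.63 (adjusted p = 3.06e-04). Gata1, the central factor of the red cell line (ENSMUSG00000031162, chromosome X, 7959260 to 7978071), stood at 3.52 and 2.26 CPM in the on libraries and 72.8, 76.3, 58.2 and 69 CPM in the off libraries, and Tal1, its partner in DNA-bound complexes, at 3.63 and 1.72 CPM in the on libraries and 31.2, 31.4, 29.6 and 50.3 CPM in the off libraries. Neither gene's groups overlapped, with changes of 4.58 ± 0.58 and 3.75 ± 0.44. Nfia, a nuclear factor I protein linked to the red cell choice, rose by 2.72 ± 0.33, and Gfi1b, a repressor needed for red cell and platelet precursors, by 1.77 ± 0.35. In the list of 18 red cell transcription factors 10 of 18 tested genes were called higher and 2 lower, with a median of 0.77 (7 and 1 without on replicate 1, and 7 and 1 without on replicate 2). The 2 lower ones are factors shared with stem and lymphoid cells: Lyl1 fell by 1.06 ± 0.24 (call lost without on replicate 2 (0.132), at -0.60) and the corepressor Cbfa2t3 by 0.96 ± 0.24 (lost without on replicate 1 (0.154), at -0.55). Myb (0.29 ± 0.26, called without on replicate 2 at 0.88, adjusted p = 0.0389), Nfe2 (0.19 ± 0.23), Ldb1 (-0.27 ± 0.32) and Foxo3 (-0.09 ± 0.21) did not pass the test.

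**Figure D1:**
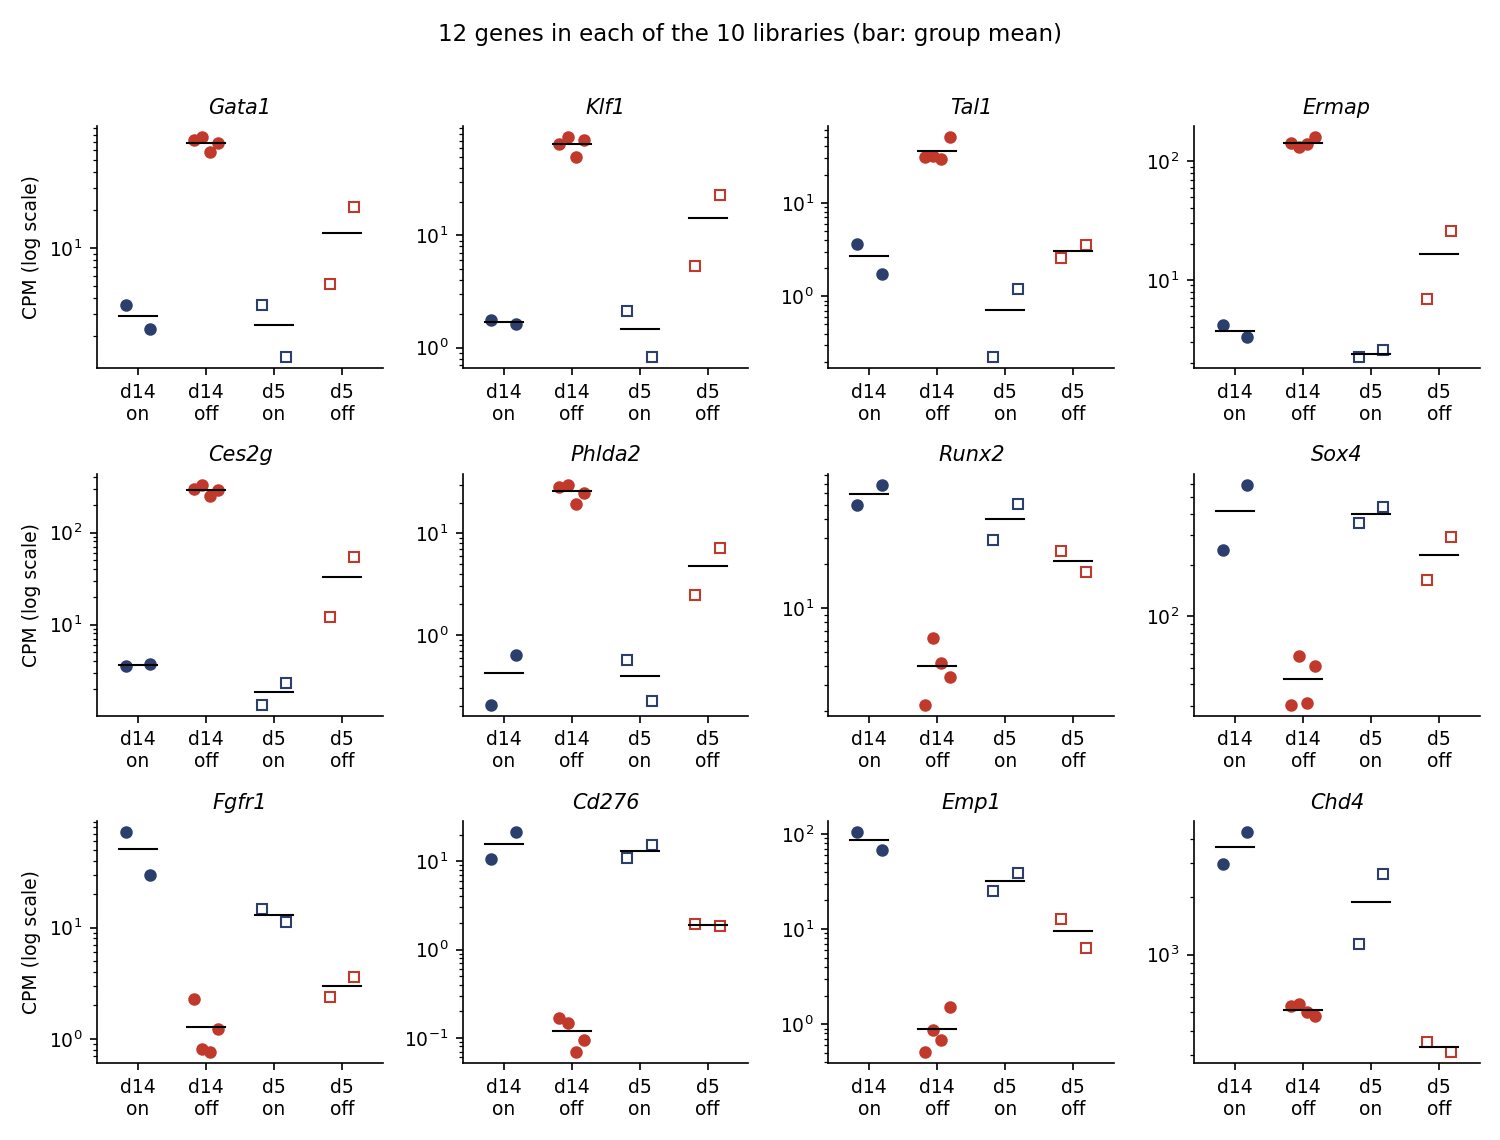
Level of 12 genes in each of the 10 libraries, in CPM on a log axis, one point per library (filled at day 14, open at day 5) with lines at the group means. At day 14 red cell genes such as Klf1 lie higher in all 4 off libraries, and genes such as Runx2 and Cd276 lie higher in both on libraries.

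Proteins of the red cell surface and the skeleton beneath it formed the list with the largest median change. Of 20 tested, 17 were called higher and 0 lower, at a median of 3.21, with 13 called in all 6 leave-one-out fits (14 without on replicate 1 and 15 without on replicate 2). Ermap, an immunoglobulin-like red cell membrane protein, was at 4.15 and 3.3 CPM in the on libraries and 143, 132, 140.0 and 159 CPM in the off libraries. Rhd, the Rh blood group protein, was at 5.6 and 5.33 CPM in the on libraries and 130.4, 137, 139 and 133 CPM in the off libraries, and its carrier partner Rhag rose by 3.76 ± 0.49. In both Ermap and Rhd the lowest off library stood above the higher on library by a wide margin, with changes of 5.26 ± 0.49 and 4.63 ± 0.79. Kel, the Kell blood group endopeptidase, was at 2.18 and 1.26 CPM in the on libraries and 43.3, 45.1, 30.5 and 40.6 CPM in the off libraries, a change of 4.54 ± 0.55. The water channel Aqp1 changed by 4.95 ± 0.67, the cholesterol-binding protein Tspo2 by 4.91 ± 0.67, and ankyrin Ank1 by 3.31 ± 0.38. The anion exchanger Slc4a1, which comes late in red cell maturation, was not called at 1.01 ± 0.40 (adjusted p = 0.0780) (called by DESeq2, adjusted p = 0.0460), and neither were Tmod1 (0.30 ± 0.13) and Cd24a (-0.40 ± 0.20).

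Promoters of 4 of the steepest rises with a match to the GATA motif are shown: Ermap and Kel from the membrane list, Epor, the erythropoietin receptor, and Ces2g, a carboxylesterase, the last 2 described further on. They were picked for holding a match, and 6 of the 13 membrane-list windows held one. Each sequence is the 250 bases before the RefSeq gene start (GRCm38.p6), 5′ to 3′ on the gene's own strand, in lower case with matches to AGATAA or TGATAA, the motif of the GATA factors, in capitals on either strand.
Ces2g, chr8:104961468-104961717, plus strand: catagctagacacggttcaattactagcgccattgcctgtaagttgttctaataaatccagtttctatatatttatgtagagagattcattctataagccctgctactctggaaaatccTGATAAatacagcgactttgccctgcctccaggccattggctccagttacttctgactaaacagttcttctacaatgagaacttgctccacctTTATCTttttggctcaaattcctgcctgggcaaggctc
Ermap, chr4:119189996-119190245, minus strand: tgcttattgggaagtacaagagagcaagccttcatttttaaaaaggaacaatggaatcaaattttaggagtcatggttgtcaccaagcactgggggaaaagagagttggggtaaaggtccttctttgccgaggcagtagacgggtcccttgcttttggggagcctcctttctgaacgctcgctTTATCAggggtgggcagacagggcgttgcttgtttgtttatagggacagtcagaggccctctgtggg
Kel, chr6:41704326-41704575, minus strand: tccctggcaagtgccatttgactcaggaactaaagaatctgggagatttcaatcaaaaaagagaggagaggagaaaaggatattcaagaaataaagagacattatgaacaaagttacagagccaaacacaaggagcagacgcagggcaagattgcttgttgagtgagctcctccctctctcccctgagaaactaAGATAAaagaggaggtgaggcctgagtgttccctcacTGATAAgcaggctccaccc
Epor, chr9:21963577-21963826, minus strand: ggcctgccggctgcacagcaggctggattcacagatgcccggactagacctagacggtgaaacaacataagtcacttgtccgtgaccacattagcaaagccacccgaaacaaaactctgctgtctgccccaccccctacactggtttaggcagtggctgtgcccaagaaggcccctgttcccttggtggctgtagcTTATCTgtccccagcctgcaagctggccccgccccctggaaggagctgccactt
Kel and Ces2g held 2 matches each, Ermap and Epor 1 each. Among the 10131 tested genes with such a sequence, 9.82% held at least 1 match. The share was 18.2% of 286 genes that rose at least 4-fold, 14.1% of 390 that fell at least 4-fold, and 46.2% of the 13 in the red cell membrane list. A match to AGGAAG, the core read by ETS factors such as Fli1 and Etv6, was in 28.7% of all windows, 25.5% of the 4-fold rises and 34.9% of the 4-fold falls. The median number of CG pairs, the site that DNMT3A methylates, was 16 in all windows, 10 in the 4-fold rises, 9 in the 4-fold falls and 6 in the red cell membrane list. Windows of strongly changed genes in both directions thus held fewer CG pairs than the median tested gene. Other motifs were counted in all windows, the 4-fold rises and the 4-fold falls. CACCC was in 56.5%, 61.5% and 63.8%, TGTGGT, a RUNX motif, in 11.2%, 12.6% and 15.6%, and TTTCCCGC, an E2F motif, in 1.82%, 1.05% and 1.03%. Base composition was not accounted for in any of these shares. These are descriptions of sequence only, and no binding or methylation was measured. A part of these factors in the changes was not tested.

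Globin is the bulk product of late red cell precursors. Hba-a1, an alpha globin gene, was at 200 and 119.9 CPM in the on libraries and 371, 498, 564 and 385 CPM in the off libraries, and Hbb-bs, an adult beta globin, at 394 and 481 CPM in the on libraries and 712, 956, 959 and 569 CPM in the off libraries. The off libraries were above the on libraries for both, and the changes of 1.51 ± 0.52 (adjusted p = 0.0511) and 0.87 ± 0.41 (adjusted p = 0.136) did not pass the test. Calls depended on the method: Hba-a1 was called by DESeq2 (adjusted p = 0.0373) and limma voom (adjusted p = 0.0260), and both genes were called by edgeR on the 6 day 14 libraries alone (adjusted p = 0.00306 and 0.0212). Of 6 tested globin genes, 2 were called higher (Hbb-y, embryonic, at 1.70 ± 0.57, lost without off replicate 1 (0.0653), without off replicate 2 (0.0629), without off replicate 3 (0.0784), without on replicate 1 (0.267) and without on replicate 2 (0.0736)), and none was called without on replicate 1 or 2 or without off replicate 1, 2 or 3. Carbonic anhydrases, which convert carbon dioxide and bicarbonate, had 4 of 11 genes higher and 1 lower at a median of 0.49 (2 and 1 without on replicate 1, and 4 and 0 without on replicate 2). Car13 rose by 4.16 ± 0.65, Car2 by 2.22 ± 0.52 (lost without on replicate 1 (0.0785)), and Car12 fell by 3.29 ± 0.70 (lost without on replicate 2 (0.0532)).

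Erythropoietin signals through its receptor and Jak2 to STAT5. Of the 16 tested genes of this list 18.8% were called higher and 18.8% lower, against 16.9% and 14.9% over all tested genes. Epor, the receptor (ENSMUSG00000006235, chromosome 9, 21958897 to 21963506), was at 1.66 and 1.17 CPM in the on libraries and 30.3, 27.5, 20.9 and 24.4 CPM in the off libraries. The on libraries were close to empty of it and all off libraries were not, a change of 4.18 ± 0.44 (adjusted p = 1.19e-04). Tfr2, a transferrin-binding protein that joins the receptor complex, rose by 4.42 ± 0.51, and Socs2, a feedback inhibitor induced by STAT5, by 1.83 ± 0.36. The kinase Jak2 was at -0.71 ± 0.27 (adjusted p = 0.0722), not called, though it was called lower by DESeq2 (adjusted p = 0.0347), without off replicate 3 (0.0216) and without on replicate 2 (0.0306). Of the other STAT5 targets, Cish (0.40 ± 0.43 (adjusted p = 0.507)) and Bcl2l1 (0.02 ± 0.33 (adjusted p = 0.967)) were not called, and the survival kinase Pim1 fell by 1.11 ± 0.24 (lost without on replicate 2 (0.0714)). The list as a whole had 3 of 16 tested genes called higher and 3 lower, at a median of 0.31 (4 and 2 without on replicate 1, and 4 and 3 without on replicate 2). Genes of late maturation, when red cells lose nucleus and organelles, were mixed, with 5 of 14 higher and 2 lower (4 and 2 without on replicate 1, and 4 and 2 without on replicate 2). Bnip3l, the receptor for mitochondrial removal (0.17 ± 0.14 (adjusted p = 0.391)), the ubiquitin enzyme Ube2o (0.11 ± 0.26 (adjusted p = 0.768)) and Trim58 (1.27 ± 0.59 (adjusted p = 0.126)) were not called. Ube2h, a further ubiquitin enzyme of late red cells, fell by 0.86 ± 0.15. The contractile ring genes Cit and Diaph3, which act in cell division as well, rose by 1.90 ± 0.24 and 0.97 ± 0.17.

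**Figure D2:**
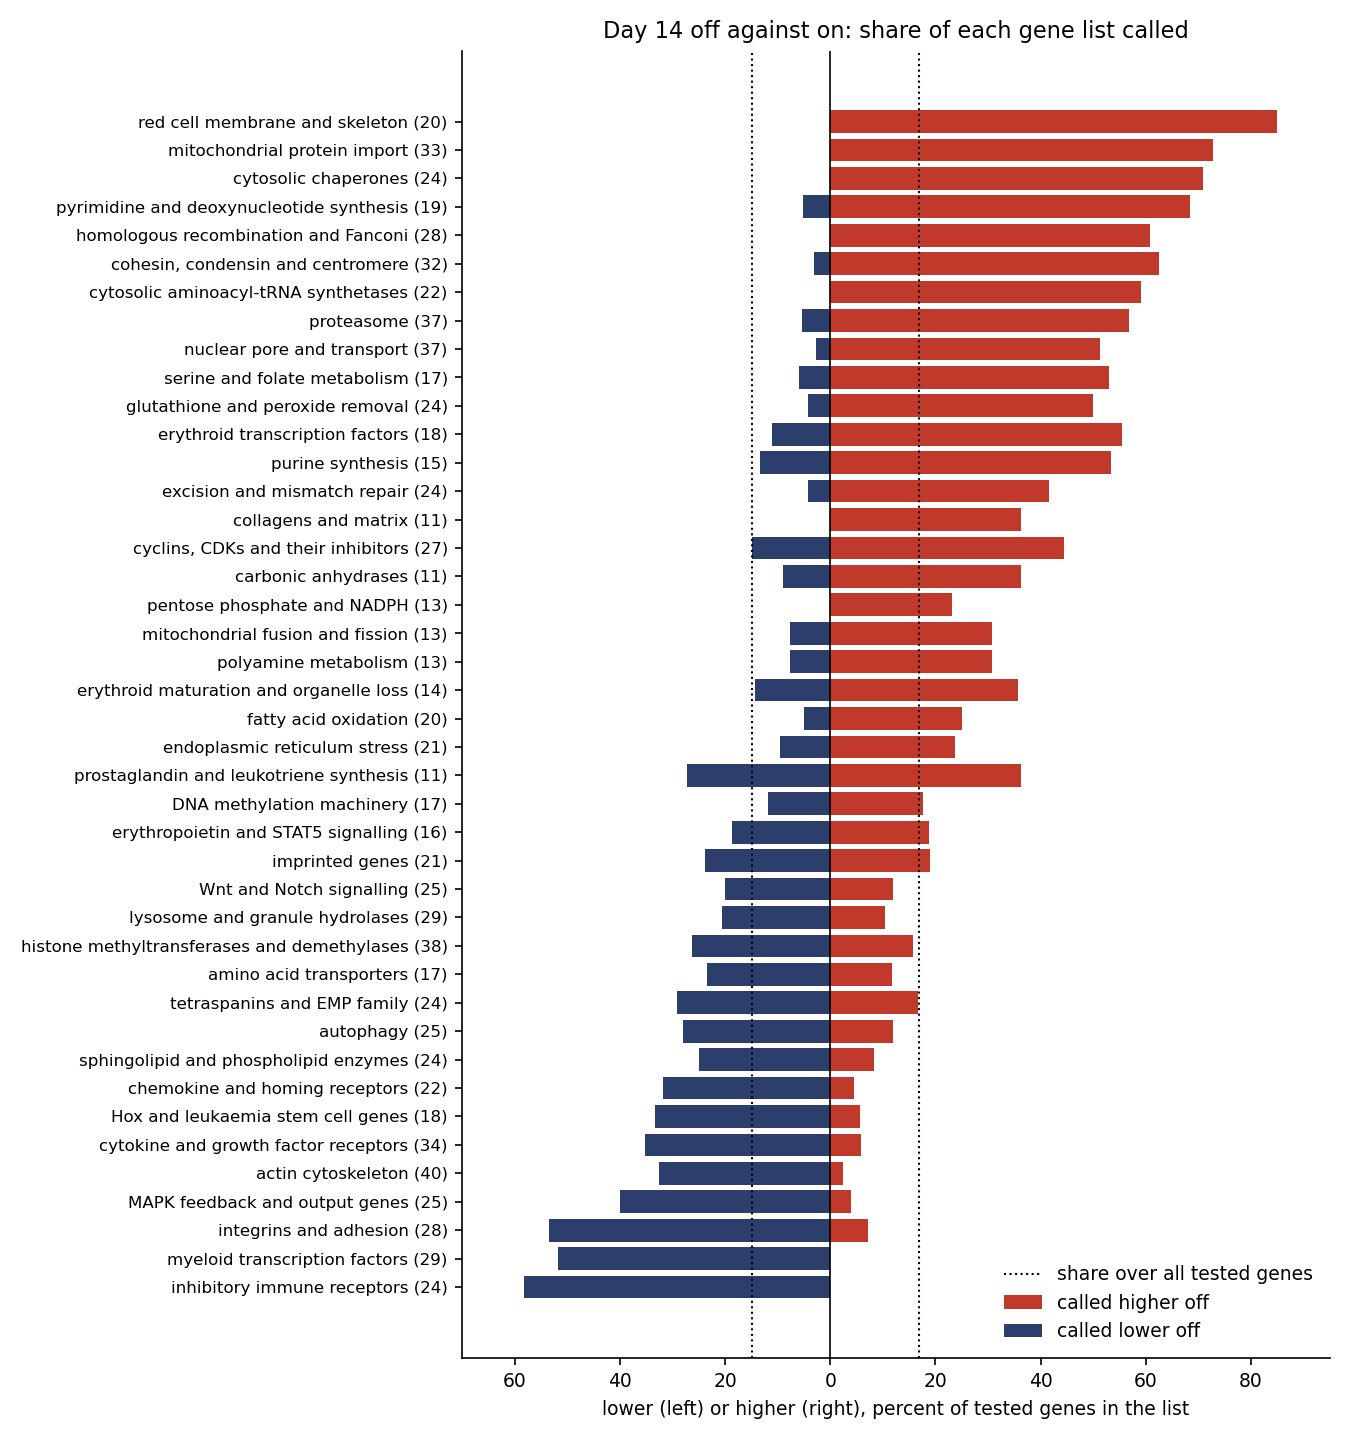
Share of tested genes called higher or lower in each gene list at day 14, in percent, with the shares over all 15916 tested genes (16.9% and 14.9%) marked for comparison. Among the lists drawn, the red cell membrane list has the highest share called higher, and the inhibitory immune receptors the highest share called lower.

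Several of the steepest rises belonged to genes outside the red cell lists. Ces2g, a carboxylesterase (ENSMUSG00000031877, chromosome 8, 104961718 to 104969537), was at 3.52 and 3.7 CPM in the on libraries and 294, 330.1, 247 and 287 CPM in the off libraries, a change of 6.32 ± 0.61 (adjusted p = 1.12e-04). Epdr1, a secreted lipid-binding protein, changed by 5.99 ± 0.64, the collagen chain Col5a1 by 5.64 ± 0.69, the sodium pump subunit Atp1b2 by 5.31 ± 0.59 and Myh10, a nonmuscle myosin heavy chain, by 5.14 ± 0.45. Pklr, the pyruvate kinase of red cells and liver, was at 1.1 and 0.994 CPM in the on libraries and 24, 27.9, 30.2 and 32 CPM in the off libraries. Its change was 4.73 ± 0.55, and Podxl, a sialomucin of progenitor and vascular surfaces, rose by 4.68 ± 0.52. For 5 genes the on libraries were both under 0.5 CPM while all 4 off libraries were at 10 CPM or more. Slc25a21, a mitochondrial carrier of dicarboxylic acids, was at 0.415 and 0 CPM in the on libraries and 21.6, 19, 15.3 and 20.3 CPM in the off libraries. Samd14, a protein linked to Kit signalling in red cell precursors, was at 0.415 and 0.452 CPM in the on libraries and 23.7, 26.4, 16.6 and 20.4 CPM in the off libraries, and Aldh1a7, an aldehyde dehydrogenase, at 0.207 and 0.271 CPM in the on libraries and 11.9, 18.2, 12.1 and 13.6 CPM in the off libraries. The transporter Abcg4 and the potassium channel subunit Kcng2 completed the set. The reverse, under 0.5 CPM in all off libraries and at least 10 CPM in both on libraries, held for 1 gene. The rule that picked the set fixed the separation of its groups in advance. Fitted changes of these 5 genes, 5.18 ± 0.40 to 6.53 ± 0.93, depend on the prior count added to near-empty libraries, and that of Slc25a21 was 10.80 without on replicate 1.

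Of 19 tested genes of the pyrimidine and deoxynucleotide list 13 were called higher and 1 lower (median 1.0; 8 and 1 without on replicate 1, and 13 and 0 without on replicate 2). Rrm2, the regulated subunit of ribonucleotide reductase, was at 20.5 and 17.8 CPM in the on libraries and 60.5, 60.5, 57.8 and 63.2 CPM in the off libraries. It was higher in every off library, by 1.66 ± 0.14, and the large subunit Rrm1 rose by 1.70 ± 0.15. Thymidylate synthase Tyms rose by 1.32 ± 0.17, thymidine kinase Tk1 by 1.38 ± 0.16, Dut, which clears dUTP, by 1.58 ± 0.20 and CTP synthase Ctps by 1.26 ± 0.24. Purine synthesis had 8 of 15 tested genes called higher and 2 lower (median 0.65; 3 and 1 without on replicate 1, and 7 and 1 without on replicate 2). Ppat, which opens the pathway, rose by 1.06 ± 0.21, Atic, which closes it, by 0.95 ± 0.17, and Aprt, the adenine salvage enzyme, by 1.02 ± 0.17. Adssl1, the muscle-type adenylosuccinate synthase, fell by 1.19 ± 0.28 (lost without on replicate 1 (0.0830)).

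One-carbon units for these pathways come from serine and folate. Of 17 tested genes 9 were called higher and 1 lower (median 0.76; 5 and 0 without on replicate 1, and 8 and 0 without on replicate 2). Mthfd1, the cytosolic folate enzyme, was at 16 and 20.9 CPM in the on libraries and 120.0, 119, 102 and 105 CPM in the off libraries, and Fpgs, which traps folate inside cells, at 16.1 and 31.8 CPM in the on libraries and 163, 148, 119 and 151 CPM in the off libraries. Both genes had all off libraries above the on libraries, with changes of 2.60 ± 0.21 and 2.60 ± 0.38. The mitochondrial enzyme Mthfd2 rose by 1.24 ± 0.17, and Ahcy and Mat2a, which turn over the methyl donor of DNA methylation, by 1.15 ± 0.18 and 0.83 ± 0.13. Phgdh, the first enzyme of serine synthesis, was not called (0.29 ± 0.28 (adjusted p = 0.467)). Polyamine synthesis showed the same direction in its 3 committed steps: Odc1 rose by 1.52 ± 0.16, Amd1 by 1.71 ± 0.18 and Srm by 1.32 ± 0.24, among 4 higher and 1 lower of 13 (3 and 0 without on replicate 1, and 4 and 1 without on replicate 2). Of 22 cytosolic tRNA synthetase genes 13 were called higher and 0 lower (median 0.57), a count that dropped to 5 without on replicate 1, 9 without on replicate 2, and 8 without off replicate 1 or off replicate 2. Hars rose by 1.01 ± 0.13 and Gars by 1.0 ± 0.13. Amino acid transporters were divided, with 2 of 17 higher and 4 lower (1 and 3 without on replicate 1, and 1 and 2 without on replicate 2): Slc38a5, a glutamine and glycine carrier of red cell precursors, rose by 4.44 ± 0.64, and Slc43a2, a carrier of large neutral amino acids, fell by 2.02 ± 0.28.

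The glutathione and peroxide list, enzymes that remove peroxides, had 12 of 24 genes higher and 1 lower (median 0.67; 9 and 0 without on replicate 1, and 10 and 0 without on replicate 2). Prdx2, the abundant peroxiredoxin of red cells, was at 151 and 197 CPM in the on libraries and 367, 446, 442 and 364 CPM in the off libraries, a change of 1.22 ± 0.21. All off values exceeded both on values. Prdx4, of the endoplasmic reticulum, rose by 2.06 ± 0.18, the mitochondrial Prdx3 by 1.21 ± 0.20, Gclm, a subunit of the enzyme that starts glutathione synthesis, by 2.39 ± 0.25, and Glrx5, a glutaredoxin that handles iron-sulfur clusters, by 1.67 ± 0.29. Prdx1 (0.19 ± 0.14 (adjusted p = 0.330)), Gpx1 (0.35 ± 0.17 (adjusted p = 0.134)) and Txnrd1 (0.20 ± 0.24 (adjusted p = 0.566)) were not called. In the pentose phosphate and NADPH list 3 of 13 genes were higher and 0 lower (2 and 0 without on replicate 1, and 2 and 0 without on replicate 2), led by the mitochondrial NAD kinase Nadk2 (1.96 ± 0.24) and Rpia (1.54 ± 0.26), while the entry enzyme G6pdx was at 0.37 ± 0.16 (adjusted p = 0.104). Fatty acid oxidation had 5 of 20 tested genes called higher and 1 lower (median 0.21; 4 and 0 without on replicate 1, and 3 and 1 without on replicate 2). The fatty acid activating enzyme Acsl1 rose by 1.99 ± 0.29 and the inner carnitine transferase Cpt2 by 1.05 ± 0.19, whereas the outer one, Cpt1a, fell by 0.93 ± 0.24 (lost without on replicate 1 (0.138)).

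**Figure D3:**
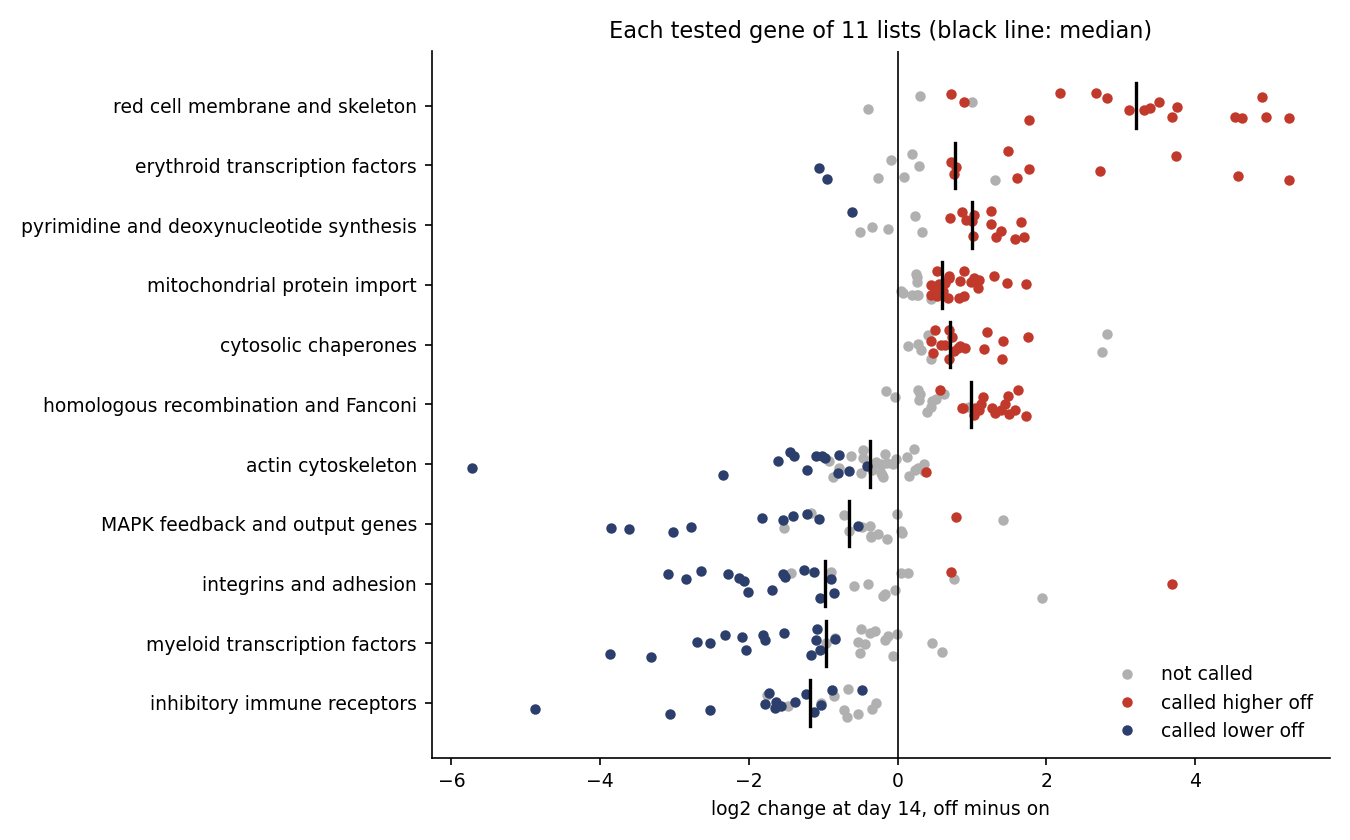
Log2 change, off over on, of every tested member of selected gene lists at day 14, one point per gene, with called and uncalled genes drawn apart and the list median marked. Members of the red cell membrane list spread from below 0 to above 5, while those of the mitochondrial import and chaperone lists lie closer together and mostly above 0.

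Machinery for protein import into mitochondria was called higher in 24 of 33 tested genes and lower in 0 (median 0.60). This count fell to 10 without on replicate 1, 12 without on replicate 2 and 15 without off replicate 2. Timm22, the inner membrane carrier translocase, rose by 1.73 ± 0.24, Timm10, a small chaperone between the membranes, by 1.29 ± 0.22, the matrix chaperone Hspa9 by 0.98 ± 0.18 and the outer channel protein Tomm5 by 0.89 ± 0.14. Mitochondrial fusion and fission genes had a median of 0.00 with 4 of 13 higher and 1 lower (3 and 1 without on replicate 1, and 3 and 1 without on replicate 2), among them the scaffold prohibitins Phb (0.74 ± 0.13) and Phb2 (1.18 ± 0.20). The fusion proteins Opa1 (0.11 ± 0.16 (adjusted p = 0.649)) and Mfn2 (-0.00 ± 0.16 (adjusted p = 0.993)) and the fission enzyme Dnm1l (-0.13 ± 0.13 (adjusted p = 0.462)) were not called.

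Cytosolic chaperones were higher in 17 of 24 genes and lower in 0 (median 0.71; 9 without on replicate 1 and 13 without on replicate 2). Hsp90aa1, the inducible HSP90, was at 532 and 653 CPM in the on libraries and 1659, 1787, 1156 and 1695 CPM in the off libraries. Its off values all exceeded its on values, a change of 1.41 ± 0.19. The chaperonin subunits Cct8 and Cct7 rose by 0.84 ± 0.12 and 0.73 ± 0.13, and the mitochondrial pair Hspd1 and Hspe1 by 1.42 ± 0.20 and 1.16 ± 0.21. The proteasome had 21 of 37 genes higher and 2 lower (median 0.44), falling to 7 higher without on replicate 1, 10 without on replicate 2 and 13 without off replicate 1 or off replicate 2. Psmd7 rose by 1.07 ± 0.15 and Psmb4 by 0.72 ± 0.13, while the 2 lower genes were the immunoproteasome subunits Psmb8 (-0.77 ± 0.25, -0.48 without on replicate 1, lost without off replicate 1 (0.0700), without off replicate 2 (0.0665), without off replicate 4 (0.0672) and without on replicate 1 (0.281)) and Psmb10 (-0.52 ± 0.13, lost without on replicate 1 (0.0966)). Endoplasmic reticulum stress genes had 5 of 21 higher and 2 lower (1 and 0 without on replicate 1, and 2 and 2 without on replicate 2), with the chaperone Hspa5 at 0.83 ± 0.16 and Xbp1 at -0.31 ± 0.15 (adjusted p = 0.145). Without a single off library the higher count was 2 (off replicate 1 or 2) or 3 (off replicate 3 or 4).

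Lysosomal hydrolases included large changes in both directions, with 3 of 29 tested genes called higher and 6 lower (2 and 5 without on replicate 1, and 2 and 6 without on replicate 2; 1 higher without off replicate 4). With all libraries 10.3% of this list was called higher and 20.7% lower, against 16.9% and 14.9% over all tested genes. Its median was -0.16, and 0.02 without on replicate 1. Lgmn, the asparagine endopeptidase, was at 82 and 74.2 CPM in the on libraries and 6.35, 3.95, 8.67 and 4.33 CPM in the off libraries. On libraries held several times any off library, a change of -3.73 ± 0.32. Ctsc, which activates granule proteases, fell by 1.47 ± 0.22 and Ctsh by 1.52 ± 0.30 (by 0.92 without on replicate 1). Ctsl went the other way, at 7.46 and 7.5 CPM in the on libraries and 41.1, 50.2, 35.2 and 31.1 CPM in the off libraries, a change of 2.40 ± 0.35. Autophagy genes had 3 of 25 higher and 7 lower (2 and 4 without on replicate 1, and 2 and 1 without on replicate 2; 4 lower without off replicate 1 or off replicate 2). Optn, a receptor for damaged mitochondria, was at 3.11 and 0.452 CPM in the on libraries and 30.6, 33.9, 27.5 and 35.7 CPM in the off libraries, a rise of 4.20 ± 0.55, and Wipi1 rose by 1.67 ± 0.32. Sqstm1, the receptor p62, fell by 0.63 ± 0.14 (lost without on replicate 2 (0.0558)).

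Homologous recombination and Fanconi genes had 17 of 28 higher and 0 lower (median 0.99; 11 without on replicate 1 and 13 without on replicate 2). Fancd2, the clamp of the Fanconi pathway, was at 6.22 and 4.06 CPM in the on libraries and 17.4, 15.7, 12.8 and 12.1 CPM in the off libraries. Every off library exceeded both on libraries, by 1.5 ± 0.24. The helicase Blm rose by 1.49 ± 0.21 and Brca2 by 1.03 ± 0.20, while Palb2 (0.51 ± 0.24 (adjusted p = 0.130)) was not called. Excision and mismatch repair had 10 of 24 tested genes called higher and 1 lower (5 and 1 without on replicate 1, and 6 and 1 without on replicate 2; 6 higher without off replicate 1 or off replicate 2). The ligase Lig1 rose by 1.37 ± 0.19 and Fen1, which trims flaps, by 1.11 ± 0.17, whereas Xpc, the damage sensor of nucleotide excision, fell by 1.23 ± 0.21.

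In the list of cohesin, condensin, kinetochore and centromere genes 20 of 32 were higher and 1 lower (median 0.99; 17 and 1 without on replicate 1, and 18 and 0 without on replicate 2). The condensin subunits Smc2 and Ncapg rose by 1.37 ± 0.14 and 1.30 ± 0.17 and the centromere histone Cenpa by 1.17 ± 0.18. The cohesin genes in the list, Smc1a (0.16 ± 0.13 (adjusted p = 0.376)), Smc3 (0.33 ± 0.14 (adjusted p = 0.104)) and Rad21 (0.29 ± 0.19 (adjusted p = 0.268)), were not called. In the nuclear pore and transport list 19 of 37 genes were higher and 1 lower (median 0.62; 10 and 1 without on replicate 1, and 14 and 0 without on replicate 2), led by the small GTPase Ran (1.22 ± 0.13), the importin Kpna2 (1.34 ± 0.16) and Nup85 (1.31 ± 0.17).

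Cyclins and their brakes changed in a mixed way, 12 of 27 higher and 4 lower (9 and 3 without on replicate 1, and 9 and 4 without on replicate 2). Ccne1, cyclin E of S-phase entry, was at 4.56 and 4.52 CPM in the on libraries and 36.7, 37.2, 31.7 and 31.4 CPM in the off libraries, a change of 2.91 ± 0.21. Cdkn1c, the inhibitor p57, was at 2.49 and 4.43 CPM in the on libraries and 0.339, 0.22, 0.344 and 0 CPM in the off libraries. Ccne1 was higher and Cdkn1c lower in all 4 off libraries than in either on library, with Cdkn1c at -3.83 ± 0.64. Cdk1 rose by 1.74 ± 0.19 and cyclin B2 (Ccnb2) by 1.61 ± 0.33. Cyclin D1 (Ccnd1) fell by 1.19 ± 0.19 and the inhibitor Cdkn2d by 1.63 ± 0.21. Cdkn1a, the inhibitor p21, was at -0.09 ± 0.33 (adjusted p = 0.868) and Cdk6 at -0.18 ± 0.32 (adjusted p = 0.708).

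On the falling side the myeloid transcription factors had 15 of 29 tested genes lower and 0 higher (median -0.96; 11 without on replicate 1 and 14 without on replicate 2), 11 of them in all 6 leave-one-out fits. Runx2 (ENSMUSG00000039153, chromosome 17, 44495987 to 44814797), a runt-domain factor best known from bone and dendritic cells, was at 49.7 and 68.7 CPM in the on libraries and 2.2, 6.22, 4.2 and 3.39 CPM in the off libraries. Both on values were several times every off value, a change of -3.87 ± 0.34 (adjusted p = 6.41e-05). Gfi1, a repressor of the granulocyte line, fell by 2.32 ± 0.43, the ETS factors Erg, Etv6 and Fli1 by 2.53 ± 0.42, 1.16 ± 0.15 and 1.10 ± 0.12, Irf4 by 2.70 ± 0.42 and Klf4 by 1.78 ± 0.29 (by 1.07 without on replicate 1). Cebpa, the granulocyte and monocyte factor, was at 33.6 and 16.5 CPM in the on libraries and 5.0, 3.29, 11 and 4.8 CPM in the off libraries. The groups did not overlap, and the fall of 2.04 ± 0.49 lost its call without on replicate 1 (0.117). Several master regulators were not called: Spi1 stood at -0.84 ± 0.37 (adjusted p = 0.113) (called lower without off replicate 3, adjusted p = 0.0487), Irf8 at -0.06 ± 0.54 (adjusted p = 0.939), Runx1 at -0.12 ± 0.52 (adjusted p = 0.877) and Cebpb at -0.51 ± 0.36 (adjusted p = 0.315).

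Stem cell and leukaemia factors were higher in 1 of 18 genes and lower in 6 (median -0.63; 0 and 4 without on replicate 1, and 1 and 4 without on replicate 2). Sox4, an HMG-box factor of immature cells, was at 244 and 591 CPM in the on libraries and 30.4, 58.6, 31 and 51.5 CPM in the off libraries. Mycn, a MYC family member, was at 37 and 81.7 CPM in the on libraries and 2.03, 5.71, 0.826 and 3.29 CPM in the off libraries, and Mn1, a coactivator of myeloid leukaemia, at 25 and 74.2 CPM in the on libraries and 1.69, 6.44, 3.86 and 4.71 CPM in the off libraries. For each of the 3 the lowest on library was above the highest off library, with changes of -3.28 ± 0.38, -4.32 ± 0.54 and -3.56 ± 0.53. Hoxa9 fell by 1.22 ± 0.36, a call lost without off replicate 1 (0.0626), without on replicate 1 (0.0681) and without on replicate 2 (0.150). Hoxa10 (-0.60 ± 0.39 (adjusted p = 0.276)), Hoxa5 (-0.28 ± 0.43 (adjusted p = 0.653)) and Hoxa7 (-0.18 ± 0.29 (adjusted p = 0.659)) were not called, and the pseudokinase Trib2 rose by 1.88 ± 0.47 (lost without on replicate 1 (0.120)).

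Of 8 tested fibroblast growth factor and receptor genes 1 was called higher and 3 lower (1 and 3 without on replicate 1, and 1 and 3 without on replicate 2). Fgfr1 (ENSMUSG00000031565, chromosome 8, 25513654 to 25575718) was at 72 and 29.8 CPM in the on libraries and 2.29, 0.805, 0.757 and 1.22 CPM in the off libraries, a change of -5.34 ± 0.43 (adjusted p = 4.78e-05). Both on libraries lay far above every off library. The ligands Fgf3 and Fgf15 changed by -5.47 ± 0.64 and -4.88 ± 0.63, while Fgfrl1, a receptor without a kinase, rose by 2.89 ± 0.47. Downstream of growth factor receptors, MAPK feedback and output genes had 1 of 25 higher and 10 lower (median -0.65; 0 and 10 without on replicate 1, and 0 and 6 without on replicate 2). The ETS targets Etv4 and Etv1 fell by 3.62 ± 0.50 and 3.85 ± 0.60, the phosphatase Dusp4 by 3.02 ± 0.51, and Rasgrp2, an exchange factor of Rap, by 2.78 ± 0.28. Dusp6 (-0.36 ± 0.22 (adjusted p = 0.241)), Egr1 (-0.26 ± 0.36 (adjusted p = 0.617)) and Spry4 (-1.53 ± 0.67 (adjusted p = 0.109)), also outputs of ERK, were not called.

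Cytokine receptors rose in 2 of 34 genes and fell in 12 (median -0.60; 1 and 9 without on replicate 1, and 1 and 12 without on replicate 2). Il1r1, the interleukin-1 receptor, was at 7.05 and 15 CPM in the on libraries and 0.677, 1.17, 0.757 and 0.941 CPM in the off libraries. Il6st, the shared chain gp130, was at 32.2 and 17.8 CPM in the on libraries and 7.28, 5.86, 9.84 and 7.06 CPM in the off libraries. Both were lower in all off libraries, by 3.62 ± 0.53 and 1.73 ± 0.28, and Il12rb1 and Il21r fell by 2.92 ± 0.33 and 2.13 ± 0.31. The myeloid growth factor receptors Csf1r (0.22 ± 0.16 (adjusted p = 0.310)), Csf3r (-0.31 ± 0.20 (adjusted p = 0.250)) and Flt3 (-0.70 ± 0.36 (adjusted p = 0.169)) were not called. In the Wnt and Notch list, with 3 of 25 higher and 5 lower (1 and 3 without on replicate 1, and 1 and 5 without on replicate 2), Notch1 fell by 2.77 ± 0.36 and Tcf7, a Wnt effector of lymphoid cells, by 3.02 ± 0.48. The shares of that list called with all libraries were 12% higher and 20% lower, against 16.9% and 14.9% over all tested genes, at a median of -0.01. Nrarp, a feedback inhibitor of Notch, was at 0.933 and 0.632 CPM in the on libraries and 14.3, 21.1, 10.3 and 14.2 CPM in the off libraries. It rose by 4.25 ± 0.47, opposite to the receptor, while the classic target Hes1 was at 0.24 ± 0.29 (adjusted p = 0.563).

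Adhesion genes were higher in 2 of 28 tested and lower in 15 (median -0.97; 1 and 7 without on replicate 1, and 2 and 15 without on replicate 2). Itga4, the alpha chain of VLA-4, was at 337 and 387 CPM in the on libraries and 113, 127, 122 and 143 CPM in the off libraries, and Pecam1, an adhesion protein of vessel and blood cells, at 116 and 217 CPM in the on libraries and 33.8, 47.9, 38.6 and 32.1 CPM in the off libraries. All off libraries lay under both on libraries, with falls of 1.52 ± 0.13 and 2.13 ± 0.29. Itga2b, the platelet integrin chain, fell by 2.84 ± 0.32 and Selplg, the selectin ligand, by 1.13 ± 0.23, while Icam4, a red cell adhesion protein held in 2 of the lists, rose by 3.69 ± 0.47. Chemokine and homing receptors had 1 of 22 higher and 7 lower (1 and 4 without on replicate 1, and 0 and 5 without on replicate 2), with Cxcr5 at -4.25 ± 0.44, P2ry14 at -1.48 ± 0.22 and Cxcr4, the marrow homing receptor, at -2.06 ± 0.48 (lost without on replicate 2 (0.0624)). Tetraspanin and EMP genes divided into 4 higher and 7 lower of 24 (4 and 7 without on replicate 1, and 3 and 6 without on replicate 2). Emp1, an epithelial membrane protein, was at 104 and 68.2 CPM in the on libraries and 0.508, 0.879, 0.688 and 1.51 CPM in the off libraries, a change of -6.60 ± 0.38, whereas Tspan8 rose by 4.56 ± 0.49 and Cd81 by 2.36 ± 0.20.

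The inhibitory immune receptor list had 14 of 24 genes lower and 0 higher (median -1.18). Leaving out on replicate 1 cut this to 6, and leaving out on replicate 2 gave 15. Sirpa, which reads the signal of Cd47, was at 60.6 and 61.2 CPM in the on libraries and 5.5, 14.6, 9.91 and 12.2 CPM in the off libraries, Lair1, a collagen receptor, at 43.1 and 42.1 CPM in the on libraries and 12.4, 14.8, 9.22 and 13.3 CPM in the off libraries, and Cd244a, a receptor of the SLAM family, at 90.2 and 87.2 CPM in the on libraries and 7.03, 13.2, 11.1 and 10.9 CPM in the off libraries. In all of these both on libraries were above every off library, with falls of 2.53 ± 0.40, 1.78 ± 0.23 and 3.07 ± 0.19. The sialic acid receptor Cd33 fell by 1.73 ± 0.38. Havcr2 (-0.35 ± 0.46 (adjusted p = 0.603)) was not called. Tyrobp, an adaptor for activating receptors, lay at the threshold (-1.03 ± 0.36 (adjusted p = 0.0518)) and was called lower by DESeq2 (adjusted p = 0.0126), with RLE scaling (0.0423) and on the 6 day 14 libraries alone (0.00860). Outside the list, Cd276, an immune checkpoint ligand also known as B7-H3 (ENSMUSG00000035914, chromosome 9, 58524298 to 58555437), was at 10.5 and 21.2 CPM in the on libraries and 0.169, 0.146, 0.0688 and 0.0941 CPM in the off libraries. Every off library was at or under the limit that a count of 0 allows, so its fitted change of -6.94 ± 0.41 depends on the prior count.

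Actin regulators rose in 1 of 40 genes and fell in 13 (median -0.38; 0 and 7 without on replicate 1, and 0 and 13 without on replicate 2). Cttn, cortactin, changed by -5.72 ± 0.50, with all 4 off libraries below both on libraries, and vimentin (Vim) fell by 2.35 ± 0.42 (by 1.53 without on replicate 1), Coro1a by 1.61 ± 0.25 and nonmuscle myosin Myh9 by 1.09 ± 0.11. Actb (-0.14 ± 0.24 (adjusted p = 0.700)), Cfl1 (-0.22 ± 0.14 (adjusted p = 0.267)) and most Arp2/3 subunits were not called. Ahnak, a giant scaffold protein under the membrane, was at 1078 and 628 CPM in the on libraries and 46.4, 70.5, 60.7 and 59.2 CPM in the off libraries, a change of -3.85 ± 0.27. Other steep falls among abundant genes were Tmem121 (-4.59 ± 0.69), the adhesion receptor Adgrg3 (-4.31 ± 0.43), Tespa1, a T cell signalling protein (-3.88 ± 0.43), and the glutamate receptor subunit Gria3 (-3.76 ± 0.36). In lipid metabolism Sphk1, sphingosine kinase, rose by 3.87 ± 0.38 and the glucosylceramide synthase Ugcg by 1.26 ± 0.24, while ceramide synthases Cers5 and Cers6 fell by 1.02 ± 0.17 and 1.59 ± 0.23. That list had 2 of 24 higher and 6 lower (3 and 2 without on replicate 1, and 2 and 7 without on replicate 2). Prostaglandin and leukotriene genes gave 4 of 11 higher and 3 lower, at a median of -0.48, which was 0.38 without on replicate 1, where 0 and 1 were called. Without on replicate 2 the calls were 2 and 2, and without off replicate 2 there were 2 higher. Matrix genes were called higher in 4 of 11 and lower in 0 (2 and 1 without on replicate 1, and 2 and 0 without on replicate 2), with Col18a1 at 4.24 ± 0.49.

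Among 17 DNA methylation genes 3 were higher and 2 lower (2 and 2 without on replicate 1, and 2 and 1 without on replicate 2). Uhrf1, which brings the maintenance enzyme to replicating DNA, rose by 1.35 ± 0.24 and Dnmt1, that enzyme, by 1.25 ± 0.30 (lost without on replicate 1 (0.115)). Dnmt3b (0.15 ± 0.30 (adjusted p = 0.732)), Tet2 (-0.75 ± 0.32 (adjusted p = 0.0972)) and Tet1 (-0.53 ± 0.29 (adjusted p = 0.188)) were not called. The shares called in this list, 17.6% higher and 11.8% lower, were near the 16.9% and 14.9% over all tested genes. Histone methylation genes had 6 of 38 higher and 10 lower, but 4 and 0 without on replicate 2, 2 and 7 without on replicate 1, and 6 lower without off replicate 2. The Polycomb enzyme Ezh2 rose by 0.69 ± 0.13 and Suv39h1, which marks heterochromatin, by 0.97 ± 0.17. Of 21 tested imprinted genes, whose parental copies differ in methylation, 4 were higher and 5 lower. The counts were 5 and 3 without on replicate 1, and 4 and 2 without on replicate 2. There were 2 lower without off replicate 1 and 3 without off replicate 4. These counts are to be read against the 16.9% and 14.9% over all tested genes. The list median was 0.07, and it was -0.13 without on replicate 1 and -0.03 without on replicate 2. The list as a whole thus had no common direction. Phlda2 was at 0.207 and 0.632 CPM in the on libraries and 28.7, 29.9, 19.3 and 25 CPM in the off libraries and Grb10, an adaptor that dampens growth signals, at 0.518 and 0.0903 CPM in the on libraries and 6.18, 6.66, 1.79 and 8.09 CPM in the off libraries. All off libraries exceeded both on libraries in these genes, by 5.86 ± 0.57 and 4.22 ± 0.84, and H13 fell by 1.10 ± 0.14. Of 28 listed germline genes known to be held silent by DNA methylation, 3 passed the filter and none was called (1 lower without off replicate 4), with Sycp3 at -0.76 ± 0.45 (adjusted p = 0.226) and Ddx4 at -0.53 ± 0.56 (adjusted p = 0.511). Genes of this list that did not pass the filter were not tested, and their levels were low. Piwil4 was at 0.311 and 0.0903 CPM on and 0.593, 0.439, 0.207 and 1.04 CPM off. Stra8 was at 0.622 and 0.181 CPM on and 0.508, 0.0732, 0.275 and 0.659 CPM off. Mael, Sycp1 and Tex101 were at 0 CPM in all 10 libraries. A rise too small to pass the filter was not tested.

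Some called genes lay side by side on a chromosome. Counting runs of neighbouring tested genes called in 1 direction, 30 runs held at least 5 genes and 8 held at least 7. How long such runs grow by chance was not tested. The longest run was 12 annotated genes, all lower, on chromosome 1 from 137898595 to 138175708 (mm10). It includes Ptprc, the gene of the leukocyte antigen CD45, at 415 and 289 CPM in the on libraries and 150.4, 154, 179 and 190.3 CPM in the off libraries. Ptprc fell by 1.06 ± 0.22, a call lost without on replicate 1, where it was -0.81. The other 11 genes, none of them annotated as protein-coding, fell by more, with changes from -4.10 to -1.18. Of the 11, 10 lie 204 to 264 kb downstream of the Ptprc start, with changes from -4.10 to -2.55, and 10 of the 12 genes were called in all 6 leave-one-out fits. Among them Gm37298 was at 9.33 and 10.1 CPM in the on libraries and 0.593, 0.879, 0.757 and 0.471 CPM in the off libraries. The 10 downstream entries lie close together and 1 further entry lies within Ptprc, so the run need not hold 12 separate transcripts. Within 1000 kb of Ptprc 24 genes were tested, of which the 12 outside the run were not called, at -1.26 to 1.22. Recipients carry the Ptprca allele, and how reads of either allele were counted was not tested.

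**Figure D4:**
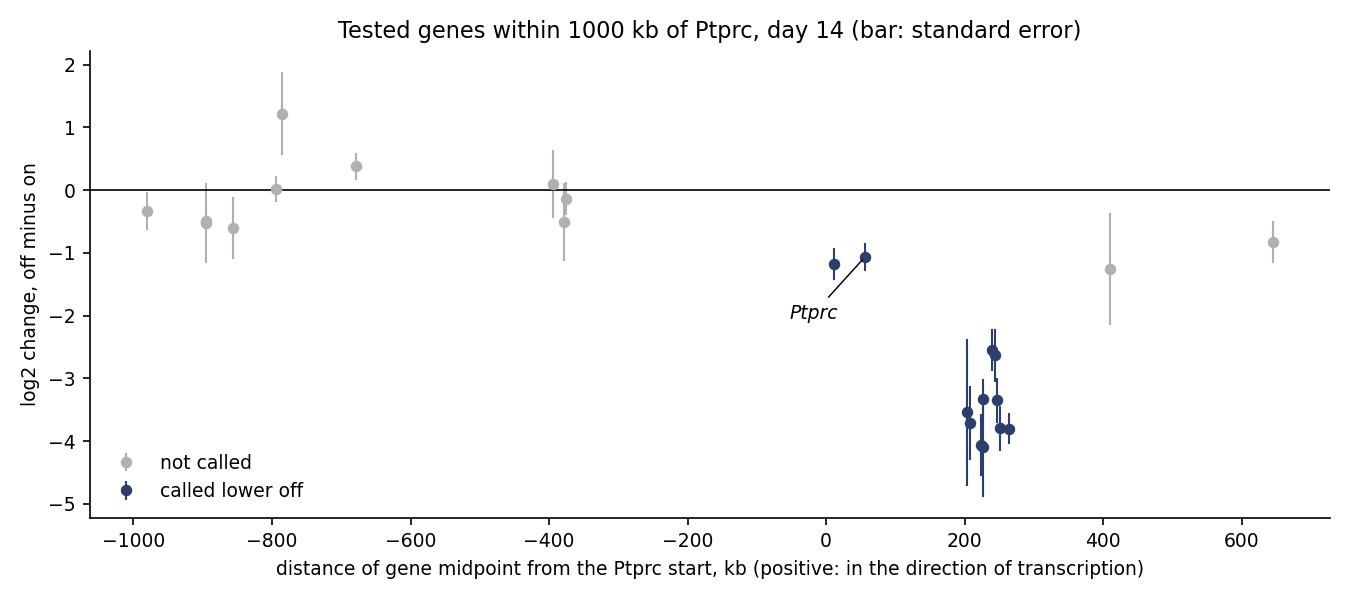
Log2 change, off over on, at day 14 for the 24 tested genes within 1000 kb of the Ptprc start, against distance in kb, with called genes drawn apart from uncalled ones. Genes 204 to 264 kb downstream lie at -4.10 to -2.55, and the 12 genes outside the run lie between -1.26 and 1.22.

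The other long runs belong mostly to known clusters. A run of 9 lower genes is the Ugt1a cluster on chromosome 1, whose members share 3′ exons and thus counts. A run of 8 lower genes on chromosome 6, from 48701582 to 48756368, holds the Gimap GTPases of lymphocytes at a median of -1.92, with Gimap6 at -1.92 ± 0.44 (lost without on replicate 2 (0.0811)). On chromosome 7, from 144588549 to 144939925, 7 genes from Ano1 through Fgf3 and Fgf15 to Ccnd1 fell together at a median of -3.43, while their median at day 5 was 0.18. Another 7 genes around Gvin1, an interferon-induced GTPase, fell at a median of -2.68. Both 7-gene runs of higher genes are histone clusters on chromosome 13. How fully a 3′ tag library captures histone RNA was not tested. By whole chromosome the share called higher ran only from 14.1% to 20.3% and the share called lower from 11.2% to 17.7%.

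By the same test 77 genes (0.484% of those tested) were called at day 5 (59 rises and 18 falls), and 68 of them were called at day 14, all in the same direction. The day 5 arms hold 2 libraries each, and 2374 genes had an unadjusted p under 0.05. A test of the difference between the 2 effects, which share no library, called 487 genes (3.06%), of which 262 changed more positively and 225 more negatively at day 14. Of these 471 were called at day 14 and 12 at day 5. Both counts rested on single libraries. Day 5 calls numbered 133 higher and 12 lower without day 5 off replicate 1, 2 and 0 without off replicate 2, 133 and 171 without on replicate 1, and 5 and 4 without on replicate 2 (unadjusted, 1499 to 3346 genes). The counts of the difference, positive and negative, fell to between 51 and 71 and between 54 and 138 without day 14 off replicate 1, 2 or 4, day 14 on replicate 1 or 2, or day 5 off replicate 1. They were 160 and 174 without day 14 off replicate 3, and 551 and 414 without day 5 on replicate 1. The red cell membrane list had a median of 2.04 at day 5 against 3.21 at day 14, with 1 of its 20 genes called at day 5 and 1 called for the difference between days, whereas the pyrimidine list stood at 0.02 against 1.0 and the myeloid transcription factors at -0.14 against -0.96. Klf1 at day 5 was at 2.14 and 0.826 CPM on and 5.36 and 23.1 CPM off, a change of 3.36 ± 0.66 (adjusted p = 0.0616), and its difference between days was 1.90 ± 0.92 (adjusted p = 0.248). Chd4, a chromatin remodeller of the NuRD complex, changed by -2.52 ± 0.33 (adjusted p = 0.0227) at day 5, a call lost without day 5 off replicate 2 (0.184), and by -2.82 ± 0.26 at day 14.

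**Figure D5:**
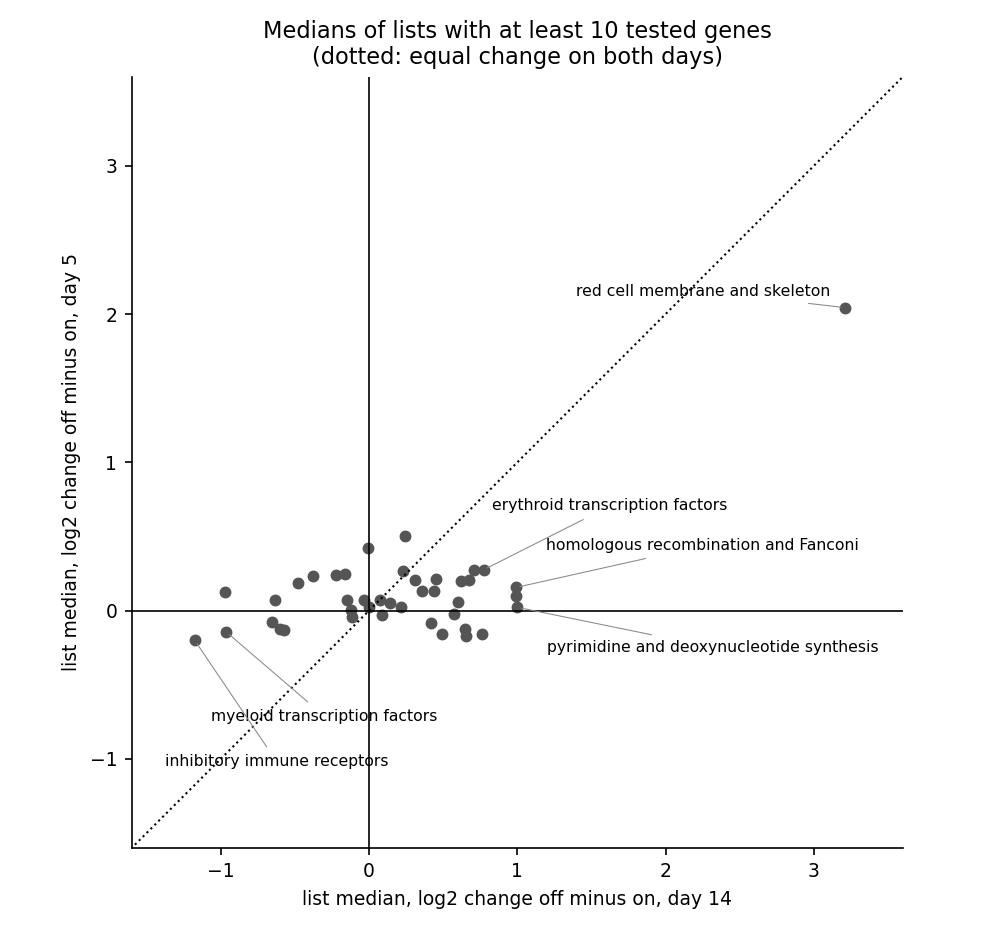
Median log2 change, off over on, of each gene list with at least 10 tested genes at day 14 (horizontal) and day 5 (vertical), with a dotted line where both days are equal. The red cell membrane list lies far from 0 on both days (3.21 and 2.04), while most lists that moved at day 14 lie near 0 at day 5.

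Among the genes named above, 39 had a called difference between days, and 9 of these calls held in all 10 fits that left out 1 library, which covers both days. Some of the 39 were named by that test or by their day 14 change, so their number follows in part from the choice. Emp1 at day 5 was at 25.3 and 39.2 CPM on and 12.8 and 6.33 CPM off. Its on libraries were the higher ones on both days, and the difference was -4.83 ± 0.56 (adjusted p = 0.00317). Ahnak differed by -3.26 ± 0.42 (adjusted p = 0.00617) and Cd244a by -2.15 ± 0.29 (adjusted p = 0.00700). Mthfd1 at day 5 was at 22.1 and 26.2 CPM on and 24.3 and 38.3 CPM off, where the groups overlapped, and it differed by 2.22 ± 0.30 (adjusted p = 0.00646). Sphk1 differed by 3.47 ± 0.51 (adjusted p = 0.0114) and Ccne1 by 2.0 ± 0.29 (adjusted p = 0.00932). The replication histone Hist1h2ag, made in S phase, differed by 2.13 ± 0.20 (adjusted p = 0.00106). Each of these 7 calls held in all 10 fits. Runx2 at day 5 was at 28.9 and 51.1 CPM on and 24.3 and 17.6 CPM off, with both on libraries above both off libraries but no call (-0.94 ± 0.39 (adjusted p = 0.301)). Its difference of -2.93 ± 0.52 (adjusted p = 0.0253) was lost without day 14 off replicate 4 (0.0598), day 14 on replicate 2 (0.0608) or day 5 off replicate 1 (0.0987). Of the 20 differences that held in 5 or fewer of the 10 fits, Nfia and Dnmt3a are examples, at 2.20 ± 0.47 and -1.05 ± 0.25, with adjusted p of up to 0.18 and 0.205 when a library was left out.

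Among the most abundant called genes, 3 moved in a fixed ratio. Akap5, an anchoring protein of kinase signalling, was at 6238 and 7245 CPM in the on libraries and 2848, 2607, 1999 and 3580.1 CPM in the off libraries, Lrrc17, a secreted leucine-rich protein, at 1533 and 1748 CPM in the on libraries and 705, 617, 499 and 853 CPM in the off libraries, and Vps8, an endosomal tether, at 399.9 and 466 CPM in the on libraries and 185, 171, 135 and 229 CPM in the off libraries. All 3 were lower in every off library, at -1.29 ± 0.24, -1.30 ± 0.22 and -1.27 ± 0.23. Across all 10 libraries the ratio of Akap5 to Lrrc17 stayed between 4.0 and 4.24 and that of Akap5 to Vps8 between 14.6 and 15.6. Of 9302 genes compared, the next closest to a fixed ratio with Akap5, Gm26549, strayed by up to 0.36 on the log2 scale, against 0.05 and 0.06 for these genes. The genes lie on different chromosomes, and a shared source of reads was not tested. Chd4 was among the most abundant falls too, at 2959 and 4353 CPM in the on libraries and 536, 549.9, 501 and 477 CPM in the off libraries, and both on libraries were far above every off library.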

How the data were processed

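RNA of sorted cells from 10 mouse libraries was sequenced as QuantSeq 3′ libraries, per the labels' protocols. The build mm10 and the tools HISAT2 2.0.4, Subread 2.0.0 with featureCounts, cutadapt 1.14, limma 3.48.3, edgeR 3.34.0 and bcl2fastq 2.17.1.14 stand in the submitters' processing notes. The annotation release is, like the strand setting, not given in the sources used here. Raw read counts for 52636 genes were deposited by the authors. Of these 52489 matched GENCODE release M21, which gave symbols and mm10 positions, and 147 did not. Among overlapping genes whose mean count reached 20, 85 of 3146 pairs agreed within 2% in every library and cannot be told apart. Such overlaps are one way in which counting could change a value.

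Counts were fitted in R 4.3.3 with edgeR 4.0.16 (filterByExpr, TMM, robust quasi-likelihood), with 1 mean for each of the 4 groups over all 10 libraries, which leaves 15916 genes and 1 shared spread. The test was first run on counts simulated from its own fitted spread, with few changed genes and no replicate effect. Such counts do not show how the test behaves on these libraries. Alternatives used RLE scaling, other filters, DESeq2 1.42.0, limma voom 3.58.1, a replicate block, only the 6 day 14 libraries, no ribosomal RNA locus genes, protein-coding genes that share counts with no neighbour, and each library left out. Where that left 1 library in a group, it was taken to vary as the other groups do.

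The comparison, the 54 gene lists and the tests were chosen with earlier results of these data known. Lists have no test and are described by counts and medians. Genes are named as list anchors, as the list members of smallest p (up to 4), as the 15 largest changes each way where groups did not overlap and log2 CPM averaged 3 or more, as the 6 most abundant calls each way, as near-silent genes (under 0.5 CPM against at least 10), as the 5 longest runs, as the 5 leading day differences each way, and as genes of the vectors and sort markers. The mean level in this rule leaves out genes near 0 in 4 off libraries, of which Emp1, Cttn and Fgf3 enter as list members. Further members of a list were named after their values were seen. A few genes and 1 run that the rule names are not reported here. The replicate block treats equal numbers as pairs, which the labels do not state.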

Additional observations from a re-analysis of the deposited data

Results flagged for a closer look

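The change at day 14 differed from that at day 5, by the test of the difference itself, in 39 of the 240 named genes, given here as day 14 log2 change minus day 5 log2 change. Over all tested genes the share was 3.06%. Some of the 240 were named by that test and many by their day 14 change, so the count of 39 follows in part from the choice. Genes of replication, repair and division were more positive at day 14, namely Hist1h2ag (2.13), Ccne1 (2.0), Fancd2 (1.53), Cdk1 (1.48), Tk1 (1.42), Blm (1.41), Dut (1.31), Lig1 (1.29), Rrm2 (1.11), Rrm1 (1.02) and Smc2 (0.90). The other more positive genes were Sphk1 (3.47), Kcng2 (3.19), Mthfd1 (2.22), Nfia (2.20), Odc1 (1.23), Ahcy (1.1), Nup85 (1.10), Ran (0.99) and Phb (0.80). Surface receptors, ligands and adhesion genes more negative at day 14 were Fgf15 (-5.78), Emp1 (-4.83), Fgf3 (-4.60), Cd276 (-4.16), Fgfr1 (-3.24), Gria3 (-3.20), Adgrg3 (-3.12), Itga2b (-2.53), Cd244a (-2.15) and Kit (-1.08). The other more negative genes were Mycn (-4.45), Cttn (-4.32), Ahnak (-3.26), Gm37298 (-3.00), Runx2 (-2.93), Lgmn (-2.66), Ccnd1 (-1.40), Myh9 (-1.13) and Dnmt3a (-1.05). Of the 39 differences 9 held with each of the 10 libraries left out in turn, and 20 held in 5 fits or fewer.

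In 13 of the 240 named genes 1 of the 4 day 14 off libraries stood apart from the other 3, by a gap above Dixon's critical value for 4 samples. Chance flags about 1 in 20 groups. In off replicate 3 these were Ezh2 at 141 CPM (others 174 to 179.8), Fgfrl1 at 15.3 CPM (others 16.8 to 17), Jak2 at 132 CPM (others 83.1 to 87.2), Psmb8 at 269 CPM (others 168 to 182), Rrm1 at 152 CPM (others 193 to 196), Selplg at 229 CPM (others 148 to 154) and Ube2o at 20.7 CPM (others 16.4 to 16.8). In off replicate 2 these were Ddx4 at 2.2 CPM (others 0.62 to 0.753), Glrx5 at 347 CPM (others 297 to 301), Odc1 at 450.1 CPM (others 366 to 374), Rasgrp2 at 29.9 CPM (others 15.9 to 18.1) and Tcf7 at 34.3 CPM (others 14.7 to 15.4). In off replicate 4 it was Tal1 at 50.3 CPM (others 29.6 to 31.4). Off replicate 3 and off replicate 2 together held 12 of the 13.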

How the results depend on the processing

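The 2686 higher and 2377 lower calls at day 14 moved by less than 1.5 times under each scaling, filter, tool and sample choice run. Leaving out 1 day 14 library gave 1402 to 2439 higher and 1583 to 2355 lower calls, with the fewest higher calls without on replicate 1. Of the 5063 calls, 2779 were shared with the fit without on replicate 1 and 3023 with that without on replicate 2. By scaling the share of calls that were higher stayed between 50.3% (RLE) and 53.1%. The replicate block gave 5196 calls, 4419 of them shared. The labels do not say what a shared number means. Deviations of same-numbered libraries from their group means correlated at 0.0295 to 0.334 over 12 pairs, 10 of them above 0.1, and at 0.0295 and 0.298 for the 2 day 14 pairs. All 12 were above 0. In groups of 2 libraries the 2 deviations mirror each other, so some of these values repeat and are not separate evidence. Whether the numbers pair the libraries cannot be settled from them, and the main fit holds no block. With the block Flt3, Hbb-bs, Jak2, Spi1, Spry4, Tet2, Tyrobp and Xbp1 gained a call (Spi1 at -1.11, adjusted p = 8.80e-04).

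The 59 higher and 18 lower calls at day 5 became 302 and 153 with DESeq2, 558 and 434 with no low-count filter and 142 and 83 with the replicate block. Limma voom made 0 and 0 such calls, with 2340 genes at an unadjusted p under 0.05 (edgeR 2374, DESeq2 2240). Leaving out 1 library gave 2 to 133 higher and 0 to 171 lower, the 0 without day 5 off replicate 2 standing beside 1924 genes at an unadjusted p under 0.05. The day difference, 262 more positive and 225 more negative at day 14, became 651 and 638 with DESeq2, 775 and 1182 with no low-count filter and 720 and 801 with the replicate block. Leaving out 1 library gave 51 to 551 and 54 to 414. The cause was not tested.

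Among the 240 named genes none changed direction with a call in any of the 4211 refitted values, 223 values lost a call (206 of them with a library left out) and 43, in 14 genes, gained one. On the 6 day 14 libraries alone Cd24a, Dusp6, Flt3, Hba-a1, Hbb-bs, Jak2, Slc4a1, Tet2 and Tyrobp gained one. Of 38 list medians of at least 0.3 in size, those of prostaglandin genes, B cell markers and megakaryocyte markers changed sign under some setting. With 2 on libraries the spread of that group is set largely by the other groups.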

Other observations

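Families of genes taken by symbol, which overlap the lists in part, add the following counts at day 14 (medians of log2 change, off over on). Over all tested genes 16.9% were called higher and 14.9% lower. The share called lower in the Zfp family, 15.2%, was near the latter. How fully a 3′ tag library captures the snRNA and snoRNA genes described last was not tested, so their counts need not follow the RNA level. Some small RNA entries that overlap, such as the Rnu3a pair, share counts. Of 30 tested Kif genes, which encode kinesin motors, 11 were called higher and 3 lower (median 0.55), with 10 and 4 without on replicate 1 and 6 and 4 without on replicate 2. Zinc finger genes of the Zfp family had 15 of 302 higher and 46 lower (median -0.23), with 7 and 33 without on replicate 1, 8 and 24 without on replicate 2, and 7 or 8 higher without off replicate 1, 2 or 4. Among 57 tested snRNA genes 28 were higher and 1 lower (median 1.35), with 15 to 30 higher when 1 library was left out, the fewest without on replicate 1. Among 111 snoRNA genes 34 were higher and 1 lower (median 0.89), with 10 higher without on replicate 1, 19 without on replicate 2, 17 without off replicate 2 and 22 without off replicate 1 or 4.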
